A study of Mus musculus with 8 samples.

Results

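The genes described here are 35 genes that mark the endothelial cells of brain vessels or form the blood-brain barrier, read in the nucleus accumbens of mice given morphine or saline. They were taken by gene symbol from a table of 22337 genes, and all 35 were found. Of these, 9 code for transporters of the barrier, 5 for cell junctions, 5 for receptors, 10 for other surface or secreted proteins and 6 for transcription factors; the last 4 roles together are called junction and identity genes below. The study holds 8 RNA-seq libraries of nucleus accumbens from male C57BL/6 mice, 4 from mice chronically exposed to morphine and 4 from mice exposed to saline. The sources used here do not give the dose, the schedule or when tissue was taken. Nothing in the labels says that the replicates are separate animals, so p-values reflect variation among the libraries alone, which may be technical.

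Brain endothelial cells are joined by tight junctions that close the gap between neighbouring cells, so that sugars, amino acids and hormones pass through the cells on dedicated carriers. Efflux pumps in the same cells return many drugs to the blood; P-glycoprotein, a known carrier of morphine, is one of them. The barrier state is kept by Wnt signals from the brain tissue acting through beta-catenin and Lef/Tcf factors, while Ets and Sox factors keep the endothelial state.

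Levels are FPKM as deposited, fragments scaled to transcript length and library size, so levels may be set side by side between genes. Each of the 35 genes was above 0 in all 8 libraries. Their mean over the 8 libraries ran from 520.7 FPKM for Bsg, the chaperone of monocarboxylate carriers, to 0.28 FPKM for Foxq1, a forkhead factor. Of the 35, 2 had a mean above 100 FPKM, 13 above 10 and 29 above 1. After Bsg and Ly6e (133.7 FPKM) came Itm2a, Ly6c1, Egfl7, Slc2a1 and Cldn5 at 52.4 to 36.0 FPKM, whose libraries overlapped between neighbours in that order. The receptor tyrosine kinases of vessels were low: Flt1 averaged 3.44, Tek 1.68, Tie1 1.05 and Kdr 0.943 FPKM. The lowest genes rest on few fragments. With depths estimated at 12290000 to 19310000 fragments per library, Foxq1 had a median of about 18.6 fragments per library and Erg about 18.1, against about 2467 for Epas1, each at its longest coding transcript.

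**Figure D1:**
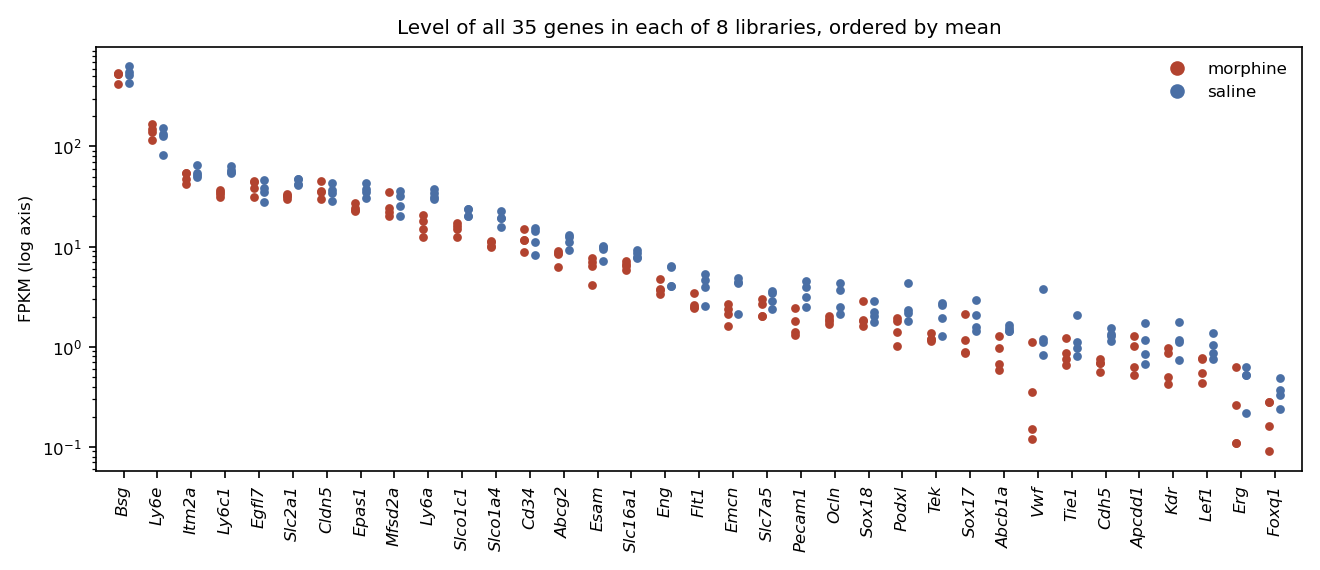
Level of each of the 35 genes in FPKM on a log axis, ordered by the mean over 8 libraries, with 4 morphine libraries (red) drawn left of 4 saline libraries (blue). Bsg is highest at a mean of 520.7 FPKM and Foxq1 lowest at 0.28 FPKM, and 32 of the 35 genes have the lower mean in morphine.

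The direction was nearly uniform across the genes. The mean was lower in morphine for 32 of 35 genes and higher for 3, Cldn5, Ly6e and Egfl7. The test was limma on log2(FPKM + 1), with p adjusted over all 12536 genes that reached an FPKM of 1 in at least 4 libraries; a log2 change is the morphine mean minus the saline mean on that scale, which understates the change of low genes. Of the 35 genes, 30 were tested; Kdr, Tie1, Erg, Foxq1 and Lef1 were not. Of the 30, 5 fell at an adjusted p under 0.05, namely Ly6c1, Ly6a, Slco1a4, Slc2a1 and Epas1, against 1.48% of all tested genes (2.52% in either direction). None of the 30 rose by limma, where 1.04% of all genes did, and 0 of 30 were higher at an unadjusted p under 0.05. At an unadjusted p under 0.05, 18 of 30 were lower, against 10.1% of all genes. For 12 of 30 genes all 4 morphine libraries lay below all 4 saline libraries, against 6.1% of all tested genes, and for 0 of 30 they lay above, against 6.56%. Of the 30, 27 had a negative change, against 48% of all tested genes. The median log2 change was -0.45 over the 30 genes and 0.01 over all tested genes, whose 5th and 95th percentiles were -0.56 and 0.47. The 35 genes were chosen with earlier results of these data known, and Cdh5 entered the test through its saline libraries alone. Counts over the tested genes therefore describe them and are not a second line of support. With no filter on low values, the median over all 35 was -0.42, with 32 of 35 negative. In bulk tissue, fewer endothelial cells and less RNA per endothelial cell cannot be told apart.

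**Figure D2:**
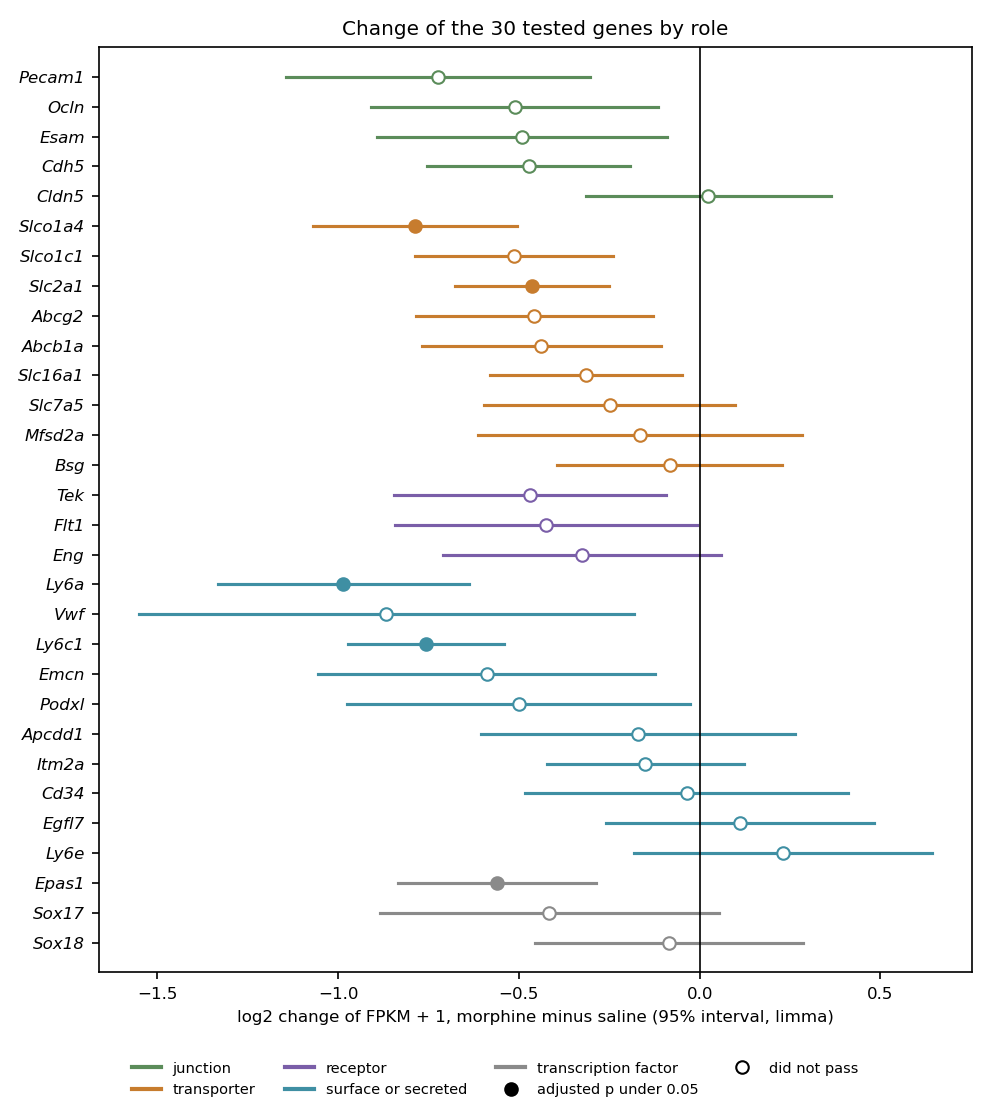
Log2 change of FPKM + 1, morphine minus saline, for the 30 tested genes grouped by role, with the 95% interval from limma; filled points passed an adjusted p of 0.05. Points left of 0 are lower in morphine: 27 of the 30 are, and the filled ones are Slco1a4, Slc2a1, Ly6a, Ly6c1 and Epas1.

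Among the carriers, Slc2a1 and Slco1a4 fell. Slc2a1 (ENSMUSG00000028645, chromosome 4, 119108711 to 119137983, plus strand, mm10) codes for GLUT1, the glucose carrier of the barrier. It had 31.7, 33.5, 30.2 and 32.0 FPKM in the morphine libraries, against 40.8, 47.0, 47.5 and 42.1 FPKM in the saline libraries. The groups did not overlap, and the spread was smaller among the morphine libraries than among the saline libraries. The mean was 31.8 ± 1.35 FPKM in morphine and 44.4 ± 3.39 FPKM in saline (SD, n = 4 each), 28.2% lower in morphine, a log2 change of -0.46 (SE 0.10, limma adjusted p = 0.0413).

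Slco1a4 (ENSMUSG00000030237, chromosome 6, 141805440 to 141856199, minus strand) codes for an organic anion carrier that moves steroid conjugates and drugs. It had 11.2, 11.4, 9.91 and 10.0 FPKM in the morphine libraries, against 15.6, 19.3, 22.6 and 19.4 FPKM in the saline libraries. Every morphine library lay below every saline library, and saline replicate 3 was the highest. The mean was 10.6 ± 0.783 FPKM in morphine and 19.2 ± 2.85 FPKM in saline (SD, n = 4 each), 44.6% lower in morphine, a log2 change of -0.79 (SE 0.13, limma adjusted p = 0.0219). Slco1a4 shares 1.73% of its 75-base windows with its relative Slco1a5, which was at most 0.12 FPKM in any library.

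Ly6c1 and Ly6a, surface proteins anchored in the membrane by a lipid and abundant on mouse brain endothelium, had the smallest p of the 30 genes together with Slco1a4. Ly6c1 (ENSMUSG00000079018, chromosome 15, 75044018 to 75048830, minus strand) had 35.1, 36.3, 33.7 and 30.9 FPKM in the morphine libraries, against 55.6, 63.3, 54.8 and 58.7 FPKM in the saline libraries. The gap between the groups was wider than the range within either group. The mean was 34.0 ± 2.33 FPKM in morphine and 58.1 ± 3.87 FPKM in saline (SD, n = 4 each), a log2 change of -0.76 (SE 0.10, limma adjusted p = 0.0159), which is also the smallest adjusted p of all genes tested. Of the 75-base windows of Ly6c1, 21.3% also occur in Ly6c2, a leukocyte gene, so reads from these copies could be split; Ly6c2 was listed at 0 to 0.38 FPKM in morphine and 0.26 to 0.35 FPKM in saline.

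Ly6a (Sca-1; ENSMUSG00000075602, chromosome 15, 74994877 to 74998031, minus strand) had 14.9, 20.8, 18.2 and 12.4 FPKM in the morphine libraries, against 34.6, 31.5, 37.7 and 29.7 FPKM in the saline libraries. Again no morphine library reached the lowest saline library. The mean was 16.6 ± 3.71 FPKM in morphine and 33.3 ± 3.52 FPKM in saline (SD, n = 4 each), 50.3% lower in morphine, a log2 change of -0.99 (SE 0.16, limma adjusted p = 0.0207). The third Ly6 gene of the set, Ly6e, lies beside them on chromosome 15 and is made by many cell types. Its mean was 143.4 FPKM in morphine and 124.1 FPKM in saline, with overlapping groups (log2 change 0.23, limma adjusted p = 0.527). Without saline replicate 3, the log2 change of Ly6e was 0.047 (limma adjusted p = 0.90).

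Epas1 (HIF-2 alpha; ENSMUSG00000024140, chromosome 17, 86753700 to 86833410, plus strand), an oxygen-regulated factor high in endothelium and also made in astrocytes and pericytes, was the fifth gene to fall. It had 24.4, 27.1, 22.9 and 23.1 FPKM in the morphine libraries, against 30.2, 37.7, 43.3 and 35.4 FPKM in the saline libraries. The groups did not overlap, and saline replicate 3 was again the highest. The mean was 24.4 ± 1.96 FPKM in morphine and 36.6 ± 5.41 FPKM in saline (SD, n = 4 each), a log2 change of -0.56 (SE 0.12, limma adjusted p = 0.0462).

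**Figure D3:**
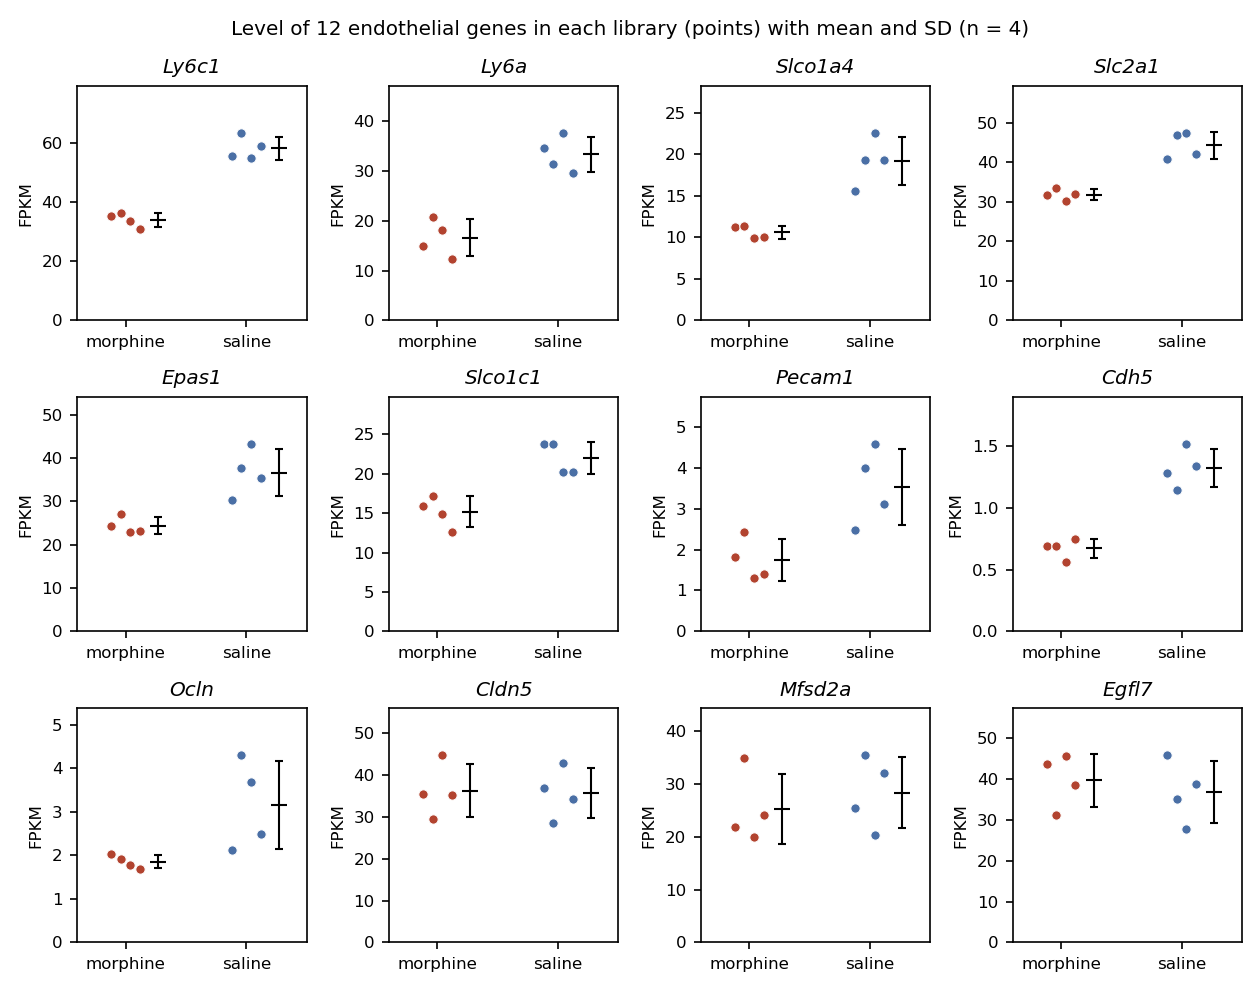
FPKM of 12 genes in each library (points), with mean and SD (n = 4) beside each group, morphine (red) left of saline (blue); every axis starts at 0. In the first 9 panels, Ly6c1 to Ocln, every morphine library lies below every saline library, while in Cldn5, Mfsd2a and Egfl7 the groups overlap.

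The sequence around the transcription start, 250 bases before it to 50 after it, is given for 3 of the genes that fell and, beside them, for Cldn5, a barrier gene whose groups overlapped. RefSeq's promoter table (GRCm38.p6) held 21 of the 35 genes, with 32 start sites; Pecam1, Cdh5, Esam, Slc7a5, Bsg, Ly6a, Ly6e, Podxl, Apcdd1, Vwf, Sox17, Sox18, Foxq1 and Epas1 were not matched. Capitals mark matches, on either strand, to AGGAAG (the Ets core), CTTTGA (Tcf/Lef), ATTGTT (Sox), ACGTG (hypoxia-inducible factors) or GGGCGG (GC box); 2 of the 3 Ets matches at the second Ly6c1 start site overlap. The intervals are chr4:119108495-119108794 (plus strand) for Slc2a1, chr6:141856171-141856470 (minus) for Slco1a4, chr15:75048788-75049087 and chr15:75048614-75048913 (minus) for the Ly6c1 start sites, and chr16:18776597-18776896 (plus) for Cldn5.
Slc2a1: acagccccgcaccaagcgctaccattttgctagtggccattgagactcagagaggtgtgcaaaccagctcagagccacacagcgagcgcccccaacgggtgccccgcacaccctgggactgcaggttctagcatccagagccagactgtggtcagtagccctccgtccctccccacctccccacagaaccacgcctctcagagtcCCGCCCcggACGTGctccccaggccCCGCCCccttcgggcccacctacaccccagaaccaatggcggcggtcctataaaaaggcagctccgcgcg
Slco1a4: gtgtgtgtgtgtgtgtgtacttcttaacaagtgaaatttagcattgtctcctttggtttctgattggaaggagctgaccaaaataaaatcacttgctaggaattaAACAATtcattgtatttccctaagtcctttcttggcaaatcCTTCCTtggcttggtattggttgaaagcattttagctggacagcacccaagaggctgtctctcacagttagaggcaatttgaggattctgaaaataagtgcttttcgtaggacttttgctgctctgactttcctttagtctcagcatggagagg
Ly6c1, start site 1: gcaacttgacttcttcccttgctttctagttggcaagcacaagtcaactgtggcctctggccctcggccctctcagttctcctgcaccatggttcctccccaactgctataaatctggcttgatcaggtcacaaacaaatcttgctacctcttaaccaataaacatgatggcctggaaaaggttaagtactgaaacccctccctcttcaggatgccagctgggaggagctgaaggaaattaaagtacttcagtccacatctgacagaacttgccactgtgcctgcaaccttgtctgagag
Ly6c1, start site 2: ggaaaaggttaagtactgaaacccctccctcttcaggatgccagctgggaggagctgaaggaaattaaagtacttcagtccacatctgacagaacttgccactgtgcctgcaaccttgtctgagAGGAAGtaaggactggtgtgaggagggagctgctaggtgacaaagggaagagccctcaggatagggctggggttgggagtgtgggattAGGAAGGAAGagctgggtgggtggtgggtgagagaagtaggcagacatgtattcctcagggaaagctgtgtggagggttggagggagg
Cldn5: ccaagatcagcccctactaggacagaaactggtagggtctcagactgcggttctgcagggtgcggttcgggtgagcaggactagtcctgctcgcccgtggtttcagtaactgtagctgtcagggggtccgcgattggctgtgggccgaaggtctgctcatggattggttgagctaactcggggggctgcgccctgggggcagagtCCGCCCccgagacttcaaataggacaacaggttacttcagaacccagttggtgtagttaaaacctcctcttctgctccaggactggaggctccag
The Slc2a1 window holds 1 hypoxia-type and 2 GC-box matches, the Slco1a4 window 1 Ets and 1 Sox match, and the Cldn5 window 1 GC-box match. The Ets letters occurred at 17 of the 32 start sites, in 14 of 21 genes, and in 35.4% of 32817 promoters of all genes. The GC box occurred at 15 of the 32 start sites, in 11 of 21 genes, and in 35.6% of all promoters. The hypoxia-type letters occurred at 5 of the 32 start sites, in 5 genes, and in 19.6% of all promoters. For the Tcf/Lef letters these were 4 start sites, 4 genes and 16%, and for the Sox letters 4 start sites, 4 genes and 10.7%. The share of all promoters is counted per start site, not per gene. Genes with several start sites have more chances of a match, and a match is a description of letters, not a bound site.

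The other 7 carriers were lower in the mean in morphine, and none of them passed the test. Slco1c1, the thyroxine carrier OATP1C1, which astrocytes also make, had 15.9, 17.2, 14.9 and 12.5 FPKM in the morphine libraries, against 23.8, 23.8, 20.3 and 20.2 FPKM in the saline libraries. The groups did not overlap, with a log2 change of -0.51 (SE 0.12) at a limma adjusted p of 0.0592. When the mitochondrially encoded genes were removed and the libraries rescaled, it was -0.58 and passed (limma adjusted p = 0.0395).

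The drug efflux pumps were lower without passing. Abcb1a, which codes for P-glycoprotein, had 1.28, 0.67, 0.59 and 0.96 FPKM in morphine libraries, against 1.53, 1.65, 1.44 and 1.44 FPKM in saline libraries. Abcg2, the pump BCRP, had 8.43, 8.94, 6.24 and 8.66 FPKM in morphine libraries, against 11.1, 9.28, 12.4 and 13.0 FPKM in saline libraries. Neither pair of groups overlapped, and in Abcg2 the gap between them was small. The log2 change was -0.44 (SE 0.15, limma adjusted p = 0.142) for Abcb1a and -0.46 (SE 0.15, limma adjusted p = 0.125) for Abcg2. Abcb1a shares 10.6% of its windows with Abcb1b, so reads could be split between them. Abcb1b was listed at 0.2 to 0.96 FPKM in morphine and 0.48 to 1.08 FPKM in saline, a level not far from that of Abcb1a.

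Slc16a1, the lactate and ketone body carrier MCT1, had 7.15, 6.69, 5.80 and 6.38 FPKM in morphine libraries, against 9.27, 8.55, 7.86 and 7.65 FPKM in saline libraries. Its groups were apart by a narrow gap (log2 change -0.31, SE 0.12, limma adjusted p = 0.179). Slc7a5, the large neutral amino acid carrier LAT1, had 2.96, 2.04, 2.67 and 2.03 FPKM in morphine libraries, against 2.84, 2.37, 3.63 and 3.46 FPKM in saline libraries, and its groups overlapped (log2 change -0.25, limma adjusted p = 0.411). Mfsd2a, the lysolipid carrier that imports omega-3 fatty acids, had 21.9, 34.9, 20.0 and 24.1 FPKM in morphine libraries, against 25.5, 35.5, 20.4 and 32.1 FPKM in saline libraries. Its groups spanned nearly the same range, and the log2 change of -0.17 had a 95% interval of -0.61 to 0.28 (limma adjusted p = 0.697). Bsg averaged 504.7 ± 57.7 FPKM in morphine and 536.7 ± 82.3 FPKM in saline (SD, n = 4 each), a log2 change of -0.08 (limma adjusted p = 0.788).

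Of the 5 junction genes, 4 had a lower mean in morphine without passing the test, and Cldn5 differed by less than the spread between libraries. Cldn5, the main claudin of the brain's tight junctions, had 35.5, 29.6, 44.9 and 35.2 FPKM in morphine libraries, against 37.0, 28.4, 42.9 and 34.4 FPKM in saline libraries. Its range was almost the same in both groups. The log2 change of 0.02 had a 95% interval of -0.32 to 0.36 (limma adjusted p = 0.952), and its sign turned with rescaling, to -0.04 without the mitochondrial genes and -0.03 after quantile normalization. Cldn5 has a single coding transcript of 1416 bases and rested on about 753.9 fragments per library.

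Pecam1, the adhesion molecule CD31, had 1.81, 2.44, 1.3 and 1.40 FPKM in morphine libraries, against 2.47, 3.98, 4.58 and 3.11 FPKM in saline libraries. Cdh5, the cadherin of endothelial adherens junctions, had 0.69, 0.69, 0.56 and 0.75 FPKM in morphine libraries, against 1.28, 1.15, 1.52 and 1.34 FPKM in saline libraries. Ocln, the tight junction protein occludin, had 2.04, 1.91, 1.79 and 1.68 FPKM in morphine libraries, against 2.13, 4.31, 3.69 and 2.50 FPKM in saline libraries. All 3 had groups that did not overlap, narrowly in Pecam1 and Ocln and by a wider margin in Cdh5. Their log2 changes were -0.72 (SE 0.19, limma adjusted p = 0.0729), -0.47 (SE 0.13, limma adjusted p = 0.0777) and -0.51 (SE 0.18, limma adjusted p = 0.15). Esam, a junctional adhesion molecule, overlapped between the groups (log2 change -0.49, limma adjusted p = 0.167).

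None of the receptors passed. Flt1, the VEGF receptor that binds its ligand most tightly, had 2.45, 2.63, 3.40 and 2.51 FPKM in morphine libraries, against 2.53, 3.97, 5.32 and 4.67 FPKM in saline libraries. The groups overlapped through saline replicate 1 (log2 change -0.43, SE 0.19, limma adjusted p = 0.24). Tek, the angiopoietin receptor, had a log2 change of -0.47 (limma adjusted p = 0.161), and Eng, a co-receptor for TGF-beta ligands, of -0.32 (limma adjusted p = 0.326). Kdr, the main signalling receptor for VEGF, averaged 0.69 FPKM in morphine and 1.20 FPKM in saline, and Tie1, the partner of Tek, 0.87 FPKM in morphine and 1.23 FPKM in saline; both overlapped and were below the filter. Eng lies over the gene Fpgs on the other strand, and the protocol names no strand marking, so reads of these genes cannot be told apart.

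Among the remaining surface and secreted genes, none passed, and their log2 changes ran from -0.87 to 0.11. Vwf, the clotting factor that marks larger vessels, had 0.15, 1.11, 0.12 and 0.35 FPKM in morphine libraries, against 1.20, 0.83, 3.78 and 1.11 FPKM in saline libraries. Morphine replicate 2 lay inside the saline range and saline replicate 3 stood far above the other saline libraries, and the log2 change of -0.87 had a wide error (SE 0.31, limma adjusted p = 0.156). Emcn, a sialomucin of capillaries and veins, and Podxl, a sialomucin of the luminal surface, had log2 changes of -0.59 (limma adjusted p = 0.156) and -0.50 (limma adjusted p = 0.226). Without saline replicate 3, the log2 change was -0.56 for Vwf and -0.30 for Podxl. Apcdd1, an inhibitor of Wnt signals, had -0.17, Itm2a, a membrane protein, -0.15, Cd34, a sialomucin of vascular and blood progenitor cells, -0.04 and Egfl7, a protein secreted by endothelium, 0.11, with limma adjusted p between 0.534 and 0.946. Egfl7 overlaps Agpat2 on the other strand and hosts Mir126a.

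None of the other 5 transcription factors passed, and 2 of them, Sox17 and Sox18, were tested. Sox17, which keeps arterial and barrier identity, had 0.88, 1.17, 2.13 and 0.86 FPKM in morphine libraries, against 2.07, 1.43, 2.91 and 1.58 FPKM in saline libraries, and overlapped (log2 change -0.42, SE 0.21, limma adjusted p = 0.304). Lef1, the factor through which beta-catenin acts in barrier endothelium, had 0.77, 0.43, 0.55 and 0.75 FPKM in morphine libraries, against 0.75, 1.36, 1.05 and 0.87 FPKM in saline libraries. One saline library lay among the morphine values, and Lef1 was too low to be tested. Sox18, which shapes vessel growth with Sox17, had overlapping groups (log2 change -0.08, limma adjusted p = 0.821). Erg, an Ets factor, averaged 0.278 FPKM in morphine and 0.47 FPKM in saline, and Foxq1 0.203 FPKM in morphine and 0.358 FPKM in saline.

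The transporters and the junction and identity genes had close median changes over the 30 tested genes, and less close ones under other settings. The median log2 change was -0.44 over the 9 transporters, of which 2 fell, and -0.47 over the 21 tested junction and identity genes, of which 3 fell. By role it was -0.49 for the junction genes, -0.43 for the 3 tested receptors, -0.34 for the surface and secreted genes and -0.42 for the 3 tested transcription factors, beside 0.01 for all genes. The mean log2 level of the transporters lay between 3.78 and 3.97 in the morphine libraries, against 4.26 and 4.30 in the saline libraries. The mean log2 level of the junction and identity genes lay between 2.72 and 2.91 in the morphine libraries, against 3.12 and 3.38 in the saline libraries. Each set was lower in all 4 morphine libraries. The difference of these means, transporters minus junction and identity genes, was 1.04 ± 0.12 in morphine and 1.03 ± 0.11 in saline (SD, n = 4 each). It overlapped between the groups and differed by 0.0033 in the mean. Which set had the lower median changed with the setting. Without saline replicate 1, the median log2 change was -0.43 over the transporters and -0.59 over the junction and identity genes. With a pseudocount of 0.1 in place of 1, it was -0.48 over the transporters and -0.58 over the junction and identity genes. Without saline replicate 3, the median log2 change was -0.42 over the transporters and -0.31 over the junction and identity genes. With an FPKM of at least 5 asked for, which left 16 of the 35 genes, it was -0.46 over the transporters and -0.15 over the junction and identity genes, and with the mean level of striatal neuron markers per library as a covariate it was -0.37 over the transporters and -0.11 over the junction and identity genes. Over the 5 junction genes, the mean log2 level differed between the groups by -0.435, and over the 4 without Cldn5 by -0.55.

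**Figure D4:**
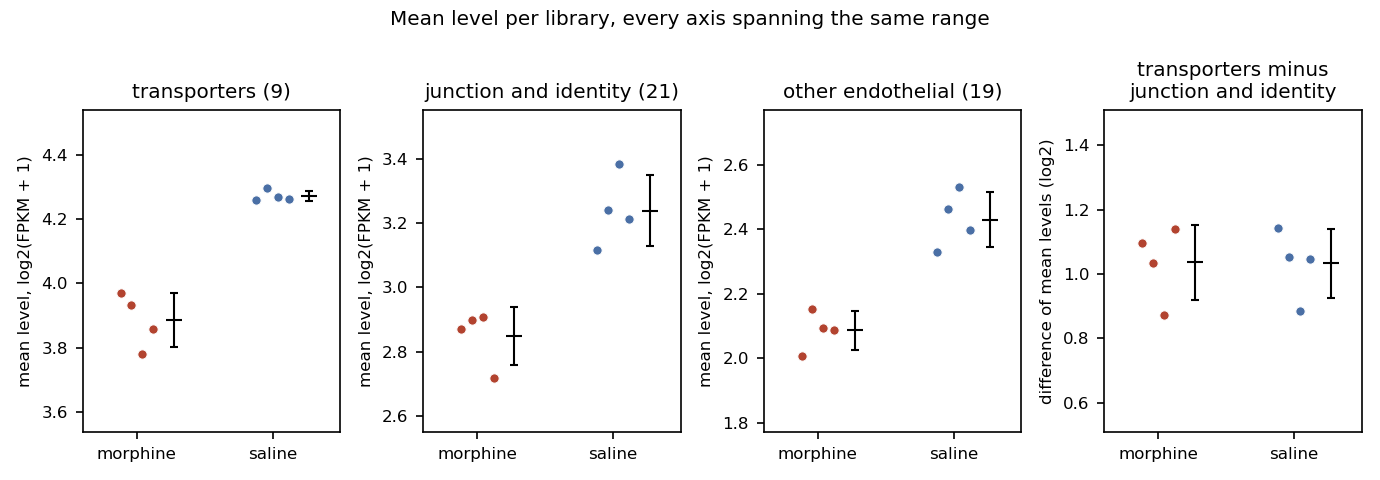
Mean log2(FPKM + 1) per library (points) with mean and SD (n = 4), morphine (red) left of saline (blue), for the 9 transporters, the 21 tested junction and identity genes, 19 other endothelial genes, and the difference between the first 2 sets; the axes start above 0 and all span the same range. The morphine points lie below the saline points in the first 3 panels and among them in the last.

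Further endothelial genes were mostly lower as well. In a list of 26 further endothelial genes, 19 were tested and 15 of these had a negative change, against 48% of all tested genes. By limma 1 fell, against 1.48% of all tested genes, and 0 rose. The median log2 change was -0.43. The 1 that fell was Icam2, an adhesion molecule, with 1.47, 1.62, 1.51 and 1.64 FPKM in morphine libraries, against 3.23, 2.99, 3.15 and 3.05 FPKM in saline libraries. The groups were tight and far apart (log2 change -0.68, SE 0.12, limma adjusted p = 0.0263). The genes that had passed the test were then set against the mean log2 level of these 19 genes in the same library. Slc2a1, Slco1a4, Ly6c1 and Ly6a had all 4 morphine libraries below all 4 saline libraries, by -0.12, -0.44, -0.41 and -0.64 in the mean. Epas1, at -0.22, then overlapped. On the same footing Cldn5 was 0.37 higher, Egfl7 0.46 higher and Ly6e 0.58 higher in morphine in the mean, each with overlapping groups. These relative values were not tested. The 19 genes were mostly low, with a mean log2(FPKM + 1) of 2.086 in morphine and 2.43 in saline, and that scale understates the change of low genes. The relative values therefore cannot show that Slc2a1, Slco1a4, Ly6c1 or Ly6a fell more than other endothelial genes, least of all Slc2a1 at -0.12.

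Of 12 further junction genes, 9 were tested and none passed by limma. At an unadjusted p under 0.05 (limma), 2 were lower and 1 higher, against 10.1% and 10% of all tested genes. Of the 9, 7 had a negative change, with a median log2 change of -0.15. The smallest p belonged to Cldn12, a claudin (-0.47, limma adjusted p = 0.142), and Lsr, the angulin of tricellular junctions (-0.50, limma adjusted p = 0.183). Of 21 further barrier transporters, 19 were tested and 1 fell by limma, against 1.48% of all tested genes. Of the 19, 13 had a negative change, with a median of -0.18. Slc22a8, the organic anion carrier OAT3, had 2.54, 2.26, 1.84 and 2.03 FPKM in morphine libraries, against 10.6, 6.80, 16.3 and 3.91 FPKM in saline libraries. Its values were close together in morphine and widely spread in saline, with replicate 3 on top (log2 change -1.57, SE 0.32, limma adjusted p = 0.0391). Slc38a3, a glutamine carrier, had a lower mean in morphine and did not pass (log2 change -0.75, limma adjusted p = 0.0635).

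Most genes of the signals that keep the barrier did not pass the test, as over the whole table, where 1.48% fell and 1.04% rose. Of 19 genes of Wnt and Norrin signalling, 13 were tested, 1 fell and 0 rose by limma. Of the 13, 11 had a negative change, against 48% of all tested genes, and the median log2 change was -0.20. At an unadjusted p under 0.05 (limma), 3 were lower and 1 higher, against 10.1% and 10% of all tested genes. The 1 higher was Wnt7b, a ligand that maintains the barrier (log2 change 0.64, limma adjusted p = 0.17), with overlapping groups. Reck, the endothelial co-receptor for Wnt7 ligands, had 0.63, 0.69, 0.66 and 0.82 FPKM in morphine libraries, against 1.38, 1.68, 1.91 and 1.70 FPKM in saline libraries. Its groups were well apart, but it reached an FPKM of 1 in the saline libraries only (log2 change -0.65, SE 0.13, limma adjusted p = 0.0377). Of 11 VEGF, angiopoietin and TGF-beta genes, 8 were tested and none passed (limma; 1 lower and 0 higher at an unadjusted p under 0.05). Of these 8, 5 had a negative change, with a median of -0.03. Their smallest p belonged to the receptor Tgfbr2 (-0.52, limma adjusted p = 0.121) and to Nrp2, a co-receptor for VEGF and semaphorins (0.36, limma adjusted p = 0.377). Of 10 genes of leukocyte adhesion and vesicle transport, 7 were tested and none passed (limma; 3 lower and 0 higher at an unadjusted p under 0.05). All 7 had a negative change, with a median of -0.26. Cav1 and Cavin1, which build caveolae, had -0.48 (limma adjusted p = 0.0687) and -0.77 (limma adjusted p = 0.094), and Selp, the P-selectin of activated endothelium, was listed at 0 in every library.

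The libraries differed in much more than vessel genes. The 14 markers of striatal medium spiny neurons, which define the labelled tissue, summed to 234.8 to 386.9 FPKM in the morphine libraries, against 1064 to 5202 FPKM in the saline libraries, and 12 of 14 fell, 1 of which (Isl1) reached an FPKM of 1 in saline libraries alone. Saline replicate 3 stood apart, with a mean log2 level of 7.33 over these markers, against 2.70 to 3.41 in the morphine libraries and 4.95 to 5.21 in the other saline libraries. Of 9 tested cortical neuron markers, 1 rose and 4 were higher at an unadjusted p under 0.05 (limma), against 1.04% and 10% of all tested genes. Their mean log2 level was 3.88 to 4.05 in the morphine libraries, against 2.33 to 3.64 in the saline libraries, with no overlap and with saline replicate 3 lowest. Mitochondrially encoded genes took 6.09 to 7.94% of the summed FPKM in morphine, against 9.09 to 12.6% in saline. Of the 316 genes that passed over the whole table, 58.9% were lower, and with the mitochondrial genes removed 78.5% of 344. With the mean striatal level per library as a covariate, 0 of 30 endothelial genes and 6 of 12536 genes passed (limma; 3 endothelial genes lower and 0 higher at an unadjusted p under 0.05). Of the 12536 genes, 1167 were at an unadjusted p under 0.05 in either direction in the same fit (limma). The log2 changes in that fit were -0.86 for Ly6c1, -0.76 for Ly6a, -0.41 for Slco1a4, -0.32 for Slc2a1 and -0.19 for Epas1. The striatal level did not overlap between the groups, so that fit can hardly tell it from treatment. The SE in it was 0.21 for Ly6c1 and 0.20 for Slc2a1, against 0.10 for each without the covariate.

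Markers of the cells around the vessels moved as well. The 14 mural markers (pericytes and smooth muscle) summed to 61.1 to 74.0 FPKM in morphine, against 89.4 to 147.9 FPKM in saline, with 1 of 10 tested lower. The 10 fibroblast and leptomeningeal markers summed to 345.8 to 538.1 FPKM in morphine, against 534.4 to 4766 FPKM in saline. Most of that sum was Ptgds, with means of 371.6 FPKM in morphine and 2627 FPKM in saline, which did not pass. Of the 9 tested, 2 were lower, 1 of which (Col3a1) reached an FPKM of 1 in saline libraries alone. Their mean log2 level was 2.79 to 3.43 in morphine and 3.50 to 4.94 in saline. The 10 astrocyte markers summed to 1562 to 1946 FPKM in morphine, against 2240 to 2933 FPKM in saline, with 3 of 10 lower. Median log2 changes were -0.34 for mural, -1.22 for fibroblast, -0.48 for astrocyte, -0.38 for oligodendrocyte, -0.55 for red cell, -1.49 for choroid plexus and -0.12 for microglial markers. Microglial markers summed to 529 to 580.1 FPKM in morphine and 503.6 to 712.1 FPKM in saline, oligodendrocyte markers to 2017 to 3204 FPKM in morphine and 3217 to 3662 FPKM in saline, and haemoglobin genes with Alas2 to 58.3 to 302.9 FPKM in morphine and 126 to 334.8 FPKM in saline; none of their tested markers passed (limma). The oligodendrocyte sums did not overlap between the groups, by a narrow gap, and most of each sum was Mbp, with means of 1529 FPKM in morphine and 2024 FPKM in saline. Their mean log2 level did overlap, at 5.662 to 6.395 in morphine and 6.342 to 6.595 in saline. At an unadjusted p under 0.05 (limma), 6 of the 10 oligodendrocyte markers were lower, 0 microglial and 0 red cell markers, against 10.1% of all tested genes. Choroid plexus markers summed to 1.77 to 15.6 FPKM in morphine, against 6.90 to 49.2 FPKM in saline, with Folr1 and Slc4a5 at 0 in some libraries and 1 of 3 tested lower (Clic6, which reached an FPKM of 1 in saline libraries alone). In the lists of the other cell types no marker was at 0 in any library. The part of these cell types and of the mitochondrial share in the endothelial values was not tested beyond the settings named here.

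**Figure D5:**
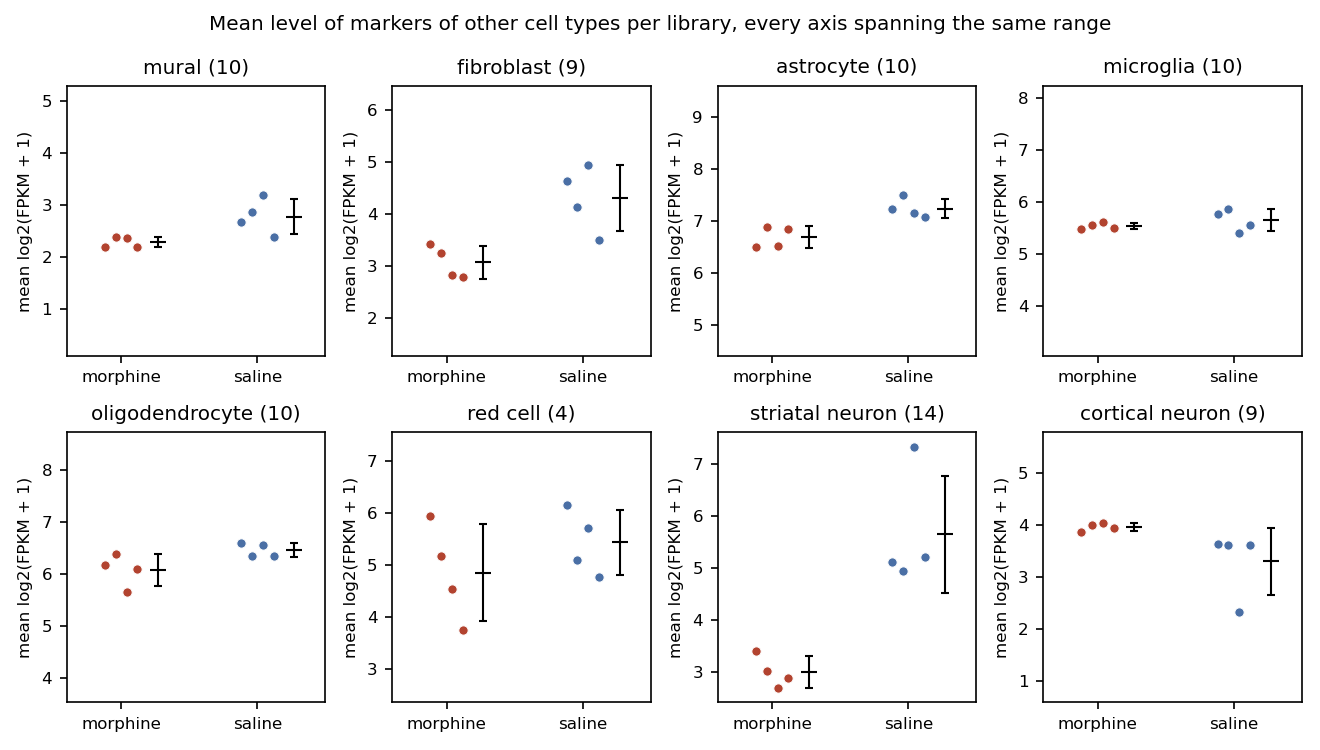
Mean log2(FPKM + 1) of tested markers of 8 other cell types per library (points) with mean and SD (n = 4), morphine (red) left of saline (blue); axes start at different values and all span the same range. Striatal neuron markers are 2.70 to 3.41 in morphine, against 4.95 to 7.33 in saline with replicate 3 on top, and astrocyte and fibroblast markers also lie lower in morphine, while microglial markers overlap.

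Several of the calls turned on single libraries. Without saline replicate 3, the highest saline library for 16 of 30 genes (53.3%, against 31.1% of all tested genes), Ly6c1, Ly6a and Slco1a4 still passed, and Slc2a1 (limma adjusted p = 0.0546) and Epas1 (0.062) did not. The median log2 change of the 30 genes was then -0.37. Without morphine replicate 3, morphine replicate 4 or saline replicate 2, none of the 30 and none of the 12536 genes passed (limma). In the same fits 16, 14 and 14 of the 30 were lower at an unadjusted p under 0.05. Of the 12536 genes, 1953, 2136 and 2005 were at an unadjusted p under 0.05 in either direction (limma). The smallest adjusted p of the 30 was 0.0653, 0.0621 and 0.068 in these fits. Without morphine replicate 1 or 2, Ly6c1, Ly6a and Slco1a4 passed; without saline replicate 1, Ly6c1, Slco1a4 and Epas1; and without saline replicate 4, all but Epas1. In every one of the 8 fits with 1 library left out, the log2 change of the 5 genes stayed between -1.10 and -0.43. Without any filter on low values Ly6c1 passed and the other 4 did not (limma adjusted p 0.0541 to 0.0782).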

How the data were processed

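The deposited table holds FPKM values of 8 libraries, rounded to 2 decimals, 1 column per library per the file headers. Per the labels' protocols, Trizol-extracted RNA was primed with oligo-dT, copied to full length by template switching, amplified over several PCR cycles and read on a NovaSeq; the protocol names neither molecular identifiers nor strand marking. The submitters' processing notes list RSEM, StringTie 1.3.1, HISAT2, Bowtie2 2.2.8 and fastp 0.18.0 with mm10. What each did, and with which annotation and strand setting, is not given in the sources used here. Since FPKM is relative to a library's total, a class that takes a larger share lowers all other genes.

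Symbols and coordinates (1-based) come from GENCODE M21 on GRCm38, the assembly mm10 names; 22232 of 22337 identifiers matched. Depth was estimated from low values of single-transcript genes of 300 to 1500 bases: with up to 6 fragments and a tolerance of 0.1, 78.5 to 84.7% of 200 to 281 values per library were whole, where evenly spread remainders give 20%. Since transcript lengths of other genes are not known, no count model was used, and intervals cover the spread between libraries. Between 0.55 and 1.2% of values were identical between any pair of libraries.

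All 8 libraries were fitted with limma 3.58.1 in R 4.3.3 (two-sided, variances moderated along a trend with the mean) on log2(FPKM + 1), for the 12536 genes that reached an FPKM of 1 in 4 or more libraries, with Benjamini-Hochberg adjustment over all of them and a threshold of 0.05. The 35 genes, their roles and the other lists were chosen with earlier results of these data known. Named with values in every library are those of the 35 past the threshold and others set by name; of each further list, the genes past the threshold or otherwise the 2 with the smallest p. Slc38a3, Wnt7b, Isl1, Col3a1 and Clic6 were added to these after their values were seen. Alternatives were a pseudocount of 0.1, no filter, an FPKM of at least 5, removal of mitochondrial genes, quantile normalization, a striatal covariate, the replicate number as a block, and each library left out. Promoter sequences come from RefSeq, and shared sequence was measured as 75-base windows of the longest coding transcript found in other genes.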

Additional observations from a re-analysis of the deposited data

Results flagged for a closer look

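In each of 70 groups of 4 libraries (35 genes, both treatments), the extreme library was checked for a gap to its neighbour that was large for the group's range (above Dixon's 95% critical value); chance passes about 1 group in 20. The gap was wide enough in 3 groups. In Abcg2, the efflux pump BCRP, morphine replicate 3 had 6.24 FPKM, against 8.43 to 8.94 FPKM in the other morphine libraries (gap 0.834 of the range). In Bsg, the chaperone of monocarboxylate carriers, morphine replicate 2 had 418.95 FPKM, against 524.73 to 542.59 FPKM in the other morphine libraries (gap 0.871); without it, the log2 change was 0.0039. In Emcn, the capillary and venous sialomucin, saline replicate 1 had 2.11 FPKM, against 4.29 to 4.86 FPKM in the other saline libraries (gap 0.838), which put it inside the morphine range.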

How the results depend on the processing

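Over the alternatives, the limma adjusted p of the 5 genes that fell ran from 0.00777 to 0.23 for Ly6c1, 0.017 to 0.518 for Ly6a, 0.0178 to 0.659 for Slco1a4, 0.0251 to 0.679 for Slc2a1 and 0.0301 to 0.857 for Epas1. Without a filter, 17 genes passed over the whole table, 1 of them among the 35. With the striatal covariate, which did not overlap between the groups and so can hardly be told from treatment, 6 genes and 0 endothelial genes passed. With the replicate number as a block, 5 genes and 0 endothelial genes passed (limma, 19 of 30 lower at an unadjusted p under 0.05, smallest adjusted p 0.0537). Of all 12536 genes, 2352 were at an unadjusted p under 0.05 in either direction in that fit (limma). Deviations of same-numbered libraries from their group means had correlations of 0.05, 0.04, -0.06 and -0.20. These few values cannot settle whether the numbers pair libraries, and the labels do not say. With 1 library left out, 0 to 450 genes and 0 to 4 endothelial genes passed. None of the 30 passed as higher under any alternative (limma; 0 at an unadjusted p under 0.05 in each fit).

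Median log2 changes moved as follows. With a pseudocount of 0.1 they were -0.69 for junction, -0.52 for surface and secreted and -0.58 for junction and identity genes, beside -0.48 for transporters. With an FPKM of at least 5 they were -0.23, -0.093 and -0.15 in the same order, over fewer genes, beside -0.46 for transporters. Quantile normalization gave -0.31 for transporters and -0.34 for junction and identity genes. The striatal covariate gave -0.20 for junction, -0.37 for transporter, -0.011 for receptor, -0.46 for surface and secreted, 0.051 for transcription factor and -0.11 for junction and identity genes. With 1 library left out, transporters lay between -0.46 and -0.35 and junction and identity genes between -0.59 and -0.31. The cause was not tested.

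Signs turned for genes that had not passed. Cldn5 was -0.036 without mitochondrial genes and -0.035 after quantile normalization, and lay between -0.080 and 0.12 with 1 library left out. Sox18 was 0.021 after quantile normalization, 0.22 with the striatal covariate and between -0.21 and 0.0041 with 1 library left out. The covariate also gave 0.12 for Slc7a5, 0.0027 for Flt1, -0.50 for Ly6e, 0.25 for Podxl, 0.49 for Vwf, -0.43 for Egfl7 and 0.051 for Sox17. With 1 library left out, Bsg lay between -0.18 and 0.0039, Egfl7 between -0.014 and 0.22, and Cd34 between -0.19 and 0.086. Low genes such as Foxq1 and Erg are limited by depth.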

Other observations

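Transcript length went with the size of the change among the 30 tested endothelial genes, in a split chosen after the values were seen. The 8 whose longest coding transcript was under 2000 bases had a median log2 change of -0.12, with 2 of them lower past the threshold, and the 22 longer ones had -0.46, with 3 lower. Over all tested genes the medians were 0.04 for the shorter and 0.01 for the longer. In the list of other endothelial genes they were -0.37 for 6 shorter and -0.43 for 13 longer genes. Cldn5, Bsg, Egfl7, Sox18 and Itm2a, whose log2 changes lay between -0.15 and 0.11, are among the short ones, as are Ly6c1, Ly6a and Esam (-0.49), while Ly6e (0.23) is among the long ones. The difference between short and long genes was not tested.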
